A study of Homo sapiens with 2 samples.

Results

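The ligands through which a tumour cell is seen or spared by T cells, natural killer (NK) cells and macrophages were examined in Ca9-22 cells carrying a DLEU1 vector. The 10 genes were CD274, PDCD1LG2, CD276, VTCN1, PVR, MICA, MICB, ULBP2, CD47 and LGALS9, taken by their symbol in the gene name column of the array files among probes that were not controls. They were 10 of 43317 gene names on the array, and 20 of its 58201 probes measured them. Membership was set by symbol with no threshold on a value, and the list of symbols was written with earlier results of these data known.

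Ca9-22 is a cell line from an oral squamous cell carcinoma (OSCC). It was infected with a lentivirus carrying the long noncoding RNA DLEU1, cloned as a full-length cDNA from another OSCC line, or with a control vector without insert, and both cultures were kept in blasticidin for 2 weeks, at 6 mg/ml as the labels give the dose (the unit could not be checked). RNA from each was labelled with Cy3 and measured on 1 Agilent 1-colour array, so there were 2 groups (control vector and DLEU1 vector) of 1 array each, on the same slide and in the same scan. No source stated whether the selected cells were a pool or 1 clone, and with 1 array per group there was no replicate check, no test and no p-value. All values below compare these 2 cultures, and spread between cultures is not in any of the errors given.

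These ligands work from the surface of the tumour cell. CD274 (PD-L1) and PDCD1LG2 (PD-L2) bind the T cell receptor PD-1 and restrain T cells, and CD276 (B7-H3) and VTCN1 (B7-H4) are B7 family relatives that also dampen T cell responses. PVR (CD155), a nectin-like adhesion molecule, is bound by the activating receptor CD226 and by the inhibitory receptors TIGIT and CD96, whereas MICA, MICB and ULBP2 are stress-induced ligands of the activating receptor NKG2D. CD47 engages SIRPA on macrophages as a signal against phagocytosis, and LGALS9 (galectin-9) is a secreted lectin whose partners include the T cell receptor TIM-3.

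The promoters of 3 members are shown because CD274 and LGALS9 hold a core of the element bound by interferon-activated factors (ISRE) and VTCN1 holds a site of the AP-1 type. The sequences are those of RefSeq on GRCh38.p14, read 5′ to 3′ on the strand of the gene, and they stop at the last base of the match or before the transcribed part. Capitals mark the matches, which are ISRE (TTTC, any 2 bases, TTTC) and GAS (TTCNNNGAA) cores in CD274, the ISRE core in LGALS9 and the AP-1 letters (TGANTCA) in VTCN1.
CD274, chr9:5450292-5450541, plus strand: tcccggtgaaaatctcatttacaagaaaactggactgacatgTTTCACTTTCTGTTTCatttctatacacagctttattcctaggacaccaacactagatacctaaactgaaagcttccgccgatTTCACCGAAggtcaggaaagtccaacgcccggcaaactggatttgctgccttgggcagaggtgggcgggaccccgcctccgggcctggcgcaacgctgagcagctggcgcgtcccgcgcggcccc
LGALS9, chr17:27630938-27631188, plus strand: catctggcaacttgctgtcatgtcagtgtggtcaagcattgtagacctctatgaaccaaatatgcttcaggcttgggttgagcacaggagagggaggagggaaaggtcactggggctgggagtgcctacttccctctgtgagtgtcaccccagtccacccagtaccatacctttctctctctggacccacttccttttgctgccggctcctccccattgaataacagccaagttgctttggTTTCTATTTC
VTCN1, chr1:117210920-117211177, minus strand: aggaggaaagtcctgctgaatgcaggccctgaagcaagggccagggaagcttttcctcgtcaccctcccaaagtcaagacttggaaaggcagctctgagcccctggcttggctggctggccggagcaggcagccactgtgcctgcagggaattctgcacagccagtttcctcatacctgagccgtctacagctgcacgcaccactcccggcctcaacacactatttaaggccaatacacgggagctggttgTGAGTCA

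Windows of 300 bases, from 250 before the annotated start to 50 after it, were searched on both strands for 9 members, and PDCD1LG2 had no window in the table used. The ISRE core was in 2 of these 9 members and in 3.57% of 35116 windows of all genes. Counted from the start, its first base lay at -208 and -202 in CD274, as overlapping matches, and at -9 in LGALS9. The GAS core was in CD274 alone among the members (first base at -125, 7.66% of all windows). The AP-1 letters were in VTCN1 and ULBP2 (7.71% of all windows). Their first base lay at 2 in VTCN1, within the transcribed part, and at -2 in ULBP2. The letters GGG, any 2 bases, TTTCC (NF-kB type, 1.91% of all windows) and GAA, TTC and GAA each parted by 2 bases (heat shock type, 0.49%) were in none of the 9, and GGGCGG (SP1 type) was in 6 members and in 45% of all windows. These matches describe letters in a window and were not measured as binding sites.

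Probe sequences are shown where a single value depends on what the probe can bind. The 3 LGALS9 probes gave different values (below), the ULBP2 probe lists several genes, and the CD47 probe is the only one of its gene. Positions are those of the array files on hg19, and a probe whose position runs over more than its 60 bases crosses an exon junction.
LGALS9 A_33_P3420416, chr17:25967739-25967798, plus strand: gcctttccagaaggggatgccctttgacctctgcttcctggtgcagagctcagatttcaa
LGALS9 A_21_P0011535, chr17:25969369-25973575, plus strand: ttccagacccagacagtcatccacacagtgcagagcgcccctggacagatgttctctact
LGALS9 A_23_P116557, chr17:25974458-25975920, plus strand: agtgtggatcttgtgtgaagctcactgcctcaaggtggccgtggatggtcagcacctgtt
ULBP2 A_23_P145485, chr6:150267714-150267773, plus strand: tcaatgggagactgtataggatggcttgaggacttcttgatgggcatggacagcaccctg
CD47 A_23_P6935, chr3:107778363-107779622, minus strand: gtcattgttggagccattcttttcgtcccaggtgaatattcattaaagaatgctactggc
The LGALS9 probe A_33_P3420416 lists RefSeq transcripts of LGALS9 only, whereas A_23_P116557 lists transcripts of LGALS9 and of its near-identical copies LGALS9B and LGALS9C. A_21_P0011535 lists no RefSeq transcript and is assigned to an Ensembl transcript. The ULBP2 probe lists transcripts of ULBP2, RAET1G and RAET1L, so its signal cannot be given to 1 of these genes.

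Levels are log2 of the processed signal minus the 75th percentile of the array, and a difference is the DLEU1 vector level minus the control vector level. A probe was detected where most of its spots were marked well above background, and each gene took its value from the brightest of its probes seen on both arrays. Levels of different probes depend on the probe and are not compared with each other. Most probes have a single spot, so 282 detected probes that have several spots gave the technical error. The SD of a spot's log2 difference was 0.080 over all of them, 0.063 at a mean signal of 500 or more (263 probes), 0.15 between 50 and 500 (16 probes) and 0.37 under 50 (3 probes). Between 47.6% and 48.1% of probes were detected on an array, no spot was saturated (0 on each), and 20246 genes were detected on both arrays. Their median difference was -0.07, with quartiles of -0.52 and 0.41. A strip of damaged spots on the DLEU1 vector array held 0 probes of the members.

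DLEU1 itself was read first as a check of the labels. Its probe A_23_P151337 had a level of 3.17 on the control array and 5.91 on the other, and so differed by 2.74, or 6.67-fold. The other DLEU1 probes, which the files place in transcript NR_109974, differed by 0.85 and 0.54. All 3 probes were higher on the array labelled DLEU1.

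Most of these ligands differed by less than 2-fold between the cultures. Of the 10 genes, 8 were detected on both arrays, VTCN1 was detected with the DLEU1 vector only, PDCD1LG2 on neither array and 0 with the control vector only (2.44% of all gene names). Among the 8, 0 were at least 2-fold higher (9.18% of all genes detected on both arrays) and 1, CD276, was at least 2-fold lower (9.78% of all genes). A total of 3 differences were above 0 and 5 were below 0, and the median was -0.23 beside -0.07 over all 20246 genes. The differences ran from -1.15 for CD276 to 0.16 for LGALS9. With 8 genes, counts of 0 and 1 are near these background shares and single out no direction for the group. A lower level in bulk RNA cannot separate less RNA per cell from fewer cells with the RNA.

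**Figure D1:**
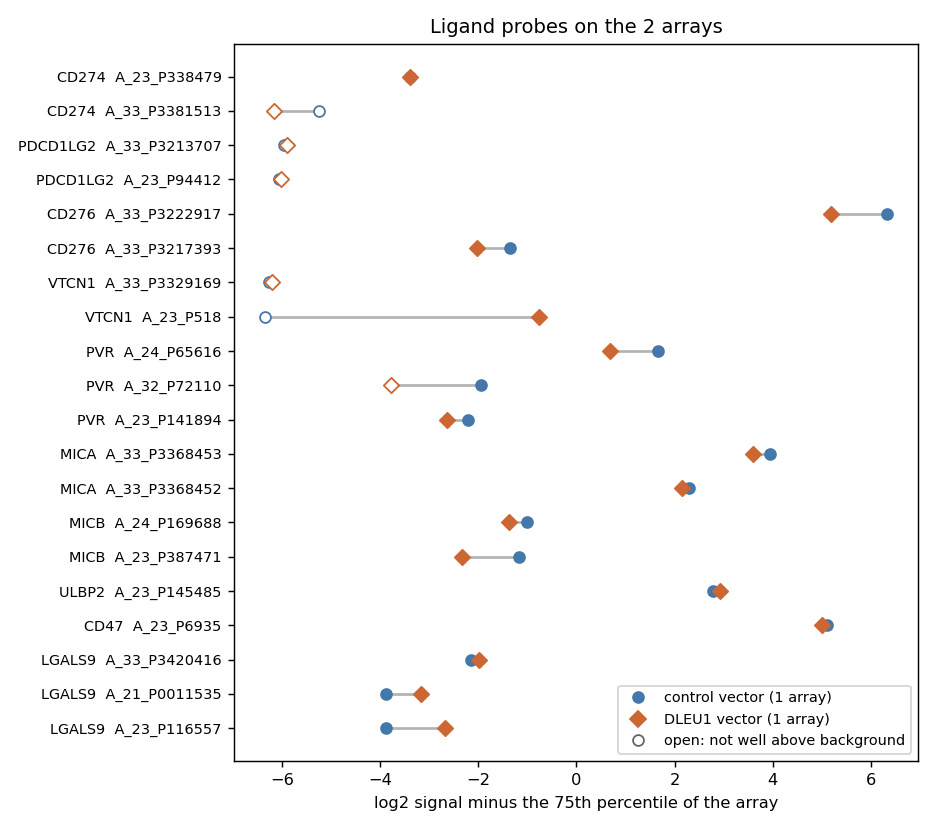
Levels of the 20 ligand probes, as log2 signal minus the 75th percentile of the array, with circles for the control vector array, diamonds for the DLEU1 vector array and open symbols where the probe was not well above background. VTCN1 A_23_P518 is detected with the DLEU1 vector only, all CD276, PVR, MICA and MICB probes lie lower with the DLEU1 vector, and all LGALS9 probes lie higher.

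The PD-1 ligands were at or under the limit of the array. CD274 was read by A_23_P338479 of transcript NM_014143 (chr9:5468310-5468369), whose signal was 23.0 in control cells and 22.4 with the DLEU1 vector. As levels these were -3.40 and -3.39, a difference of 0.0032 that was far under the spot SD of 0.37 for such dim probes and changed sign in 6 of 11 other settings. The probe stood only 0.69 and 0.65 log2 units above the lowest level detected on its array, so a modest change in CD274 RNA could not have been seen. The other CD274 probe was not well above background on either array, with signals of 6.41 and 3.28.

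PDCD1LG2 was not well above background at either of its 2 probes. Their signals were 3.90 and 3.63 with the control vector and 3.97 and 3.63 with the DLEU1 vector, all below the lowest signal that was detected (14.2 and 14.3). No difference in PD-L2 RNA was detectable at this brightness, and 48.0% of all gene names were likewise detected on neither array.

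The B7 relatives went opposite ways. CD276 was bright at A_33_P3222917 (NM_001024736, chr15:74006791-74006850), with levels of 6.34 in control cells and 5.19 with the DLEU1 vector. The difference of -1.15, or 2.22-fold lower, was many times the spot SD of 0.063 at this brightness. It also exceeded the error of 0.20 from the scanner software's own spot errors. Of all genes, 7.24% had a lower difference. A second probe of the same transcript went from -1.35 to -2.02, a difference of -0.67, so that both probes were lower with the DLEU1 vector and the dimmer one, shown here, by less than 2-fold.
CD276 A_33_P3217393, chr15:73996699-73996758, plus strand: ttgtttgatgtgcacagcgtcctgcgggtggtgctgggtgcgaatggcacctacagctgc
The lower CD276 signal was present under every setting that used the brighter probe, from -1.55 with spike-in scaling to -0.89 with loess, and was at least 2-fold in 10 of 12 of them.

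VTCN1 was the one member seen with a single vector. Its probe A_23_P518 (NM_024626, chr1:117686598-117686657) had a signal of 2.99 with the control vector, not well above background, and 139 with the DLEU1 vector. Against the lowest level detected on the control vector array, VTCN1 was at least 10.0-fold higher with the DLEU1 vector. With normexp background correction, which adds a constant to every signal, the bound was 2.92-fold. Of all gene names, 2.84% were seen on the DLEU1 vector array only, and 48 of these 1232 genes (3.90%) had a bound as large or larger. The other VTCN1 probe, of the noncoding transcript NR_045603, had signals of 3.17 and 3.20 and was detected on neither array, so the value rests on a single spot per array. The promoter of VTCN1 is printed above with its AP-1 letters, which ULBP2 also holds. No binding was measured, and a link of these letters to the VTCN1 value was not tested.

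PVR was lower at every probe. The brightest, A_24_P65616 (NM_006505, chr19:45166078-45166137), had levels of 1.65 in control cells and 0.68 with the DLEU1 vector, which is -0.97 and just inside 2-fold. The scanner software's spot errors give an error of 0.20 for this difference. A_23_P141894 went from -2.21 to -2.65, a difference of -0.43 that was close to the spot SD of 0.37 for dim probes. A_32_P72110, which lies at the far end of the same transcript, had a signal of 63.2 in control cells and 17.2 with the DLEU1 vector, where it was not well above background. As measured, PVR was 3.58-fold lower at this probe, or 1.46-fold with normexp correction. This is a ratio and not a lower bound, since the level of -3.78 with the DLEU1 vector lay above the lowest detected there (-4.04). Under other settings the brightest probe differed by between -1.37 and -0.86 and was at least 2-fold lower in 3 of 12.

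The NKG2D ligands showed small differences, apart from 1 MICB probe. MICA had levels of 3.94 and 3.60 at A_33_P3368453 (chr6:31382847-31382906), a difference of -0.34, and of 2.30 and 2.16 at the neighbouring A_33_P3368452, a difference of -0.14. Both MICA probes were lower with the DLEU1 vector, and both differences exceeded the spot SD of 0.063. The scanner software's own spot errors give a larger error of 0.20 for each difference, which the -0.14 did not reach. With the local median subtracted, that difference was -0.015. MICB had levels of -1.01 and -1.37 at A_24_P169688 (chr6:31475185-31475244), a difference of -0.36, and of -1.18 and -2.32 at A_23_P387471 (chr6:31478833-31478892), a difference of -1.15. The scanner software's errors for these were 0.21 and 0.24. The MICB probes therefore shared a direction and differed in size by 0.79, and 19.7% of the 4674 genes with 2 or more probes detected on both arrays had a gap at least as large. ULBP2 had levels of 2.79 and 2.93, a difference of 0.14 at the probe shared with RAET1G and RAET1L. This difference did not reach the scanner software's error of 0.20 and turned to -0.26 with spike-in scaling. None of the 3 genes reached 2-fold at its brightest probe.

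CD47 was bright and nearly level. Its junction probe, printed above, had a level of 5.11 in control cells and 5.00 with the DLEU1 vector. The change of -0.11 exceeded the spot SD of 0.063 but not the error of 0.20 from the scanner software's own spot errors. The sign was not stable, since it was above 0 under 3 of 12 other settings, with a range from -0.51 with spike-in scaling to 0.14 with loess. In percent, the CD47 signal with the DLEU1 vector was 92.7% of that with the control vector.

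LGALS9 gave an answer that depended on the probe. The probe listing LGALS9 alone, A_33_P3420416, had levels of -2.15 in control cells and -1.98 with the DLEU1 vector. The difference of 0.16 was near the spot SD of 0.15 and did not reach the scanner software's error of 0.23. It turned to -0.23 with spike-in scaling. Both other probes cross a junction. A_21_P0011535 went from -3.88 to -3.17, a difference of 0.71, and A_23_P116557 went from -3.89 to -2.68, a difference of 1.21 or 2.31-fold. The scanner software's errors for these were 0.38 and 0.37. All 3 differences were above 0, and the largest was at the probe that also lists LGALS9B and LGALS9C. The probe that the array files name LGALS9C, A_32_P452655, went from 0.89 to 1.96, a difference of 1.07. The gap of 1.04 between LGALS9 probes was matched or exceeded by 11.98% of genes with several detected probes, and how the signals of A_23_P116557 and A_32_P452655 divide among the copies was not tested. The 2 higher probes had signals of about the lowest detected with the control vector, 0.21 log2 units above it in both cases.

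**Figure D2:**
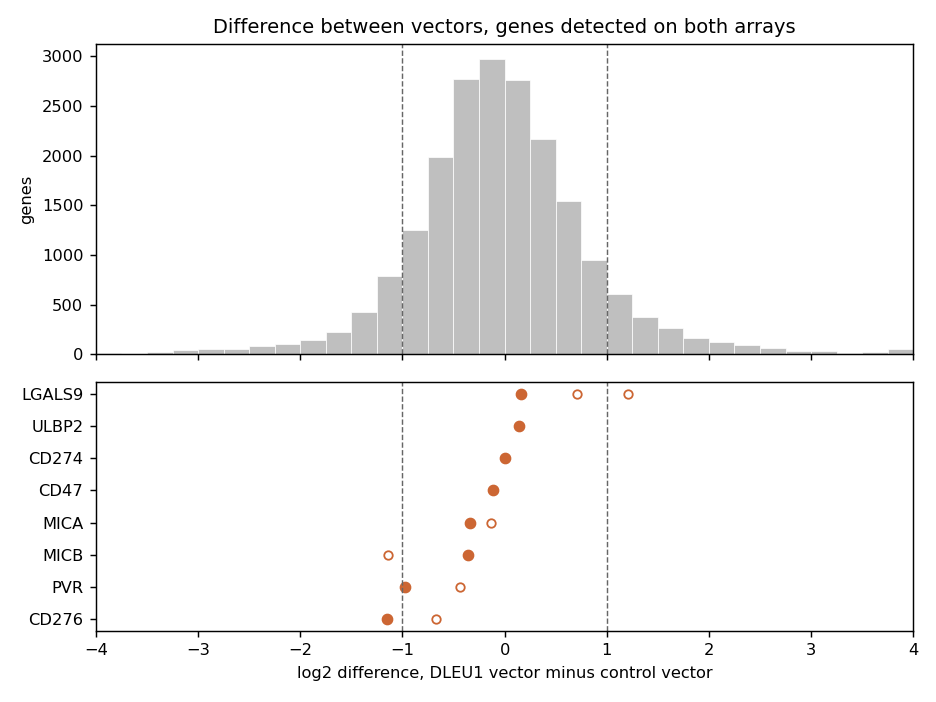
Upper panel, number of genes by log2 difference (DLEU1 vector minus control vector) among 20246 genes detected on both arrays, with genes beyond 4 counted in the outermost bars. Lower panel, the 8 ligands detected on both arrays, with filled points for the brightest probe, open points for other probes and dashed lines at 2-fold; CD276 alone is past a line at its brightest probe, and MICB and LGALS9 each have another probe past one. With spike-in scaling all points shift by -0.40, so that the filled points of LGALS9, ULBP2 and CD274 are then below 0 while the open LGALS9 points stay above it.

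Over all 20 probes, 14 were detected on both arrays, 1 with each vector only and 4 on neither. Among the 14, 1 probe (LGALS9 A_23_P116557) was at least 2-fold higher, where 8.98% of all probes were, and 2 probes (CD276 A_33_P3222917 and MICB A_23_P387471) were at least 2-fold lower, where 9.78% were. Every member with 2 or more probes detected on both arrays, 5 in number, had these probes on the same side of 0 under the scaling used here, while with spike-in scaling the brightest LGALS9 probe was below 0. The gaps between probes were 0.48 for CD276, 0.54 for PVR and 0.21 for MICA, beside a median gap of 0.35 over all such genes.

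**Figure D3:**
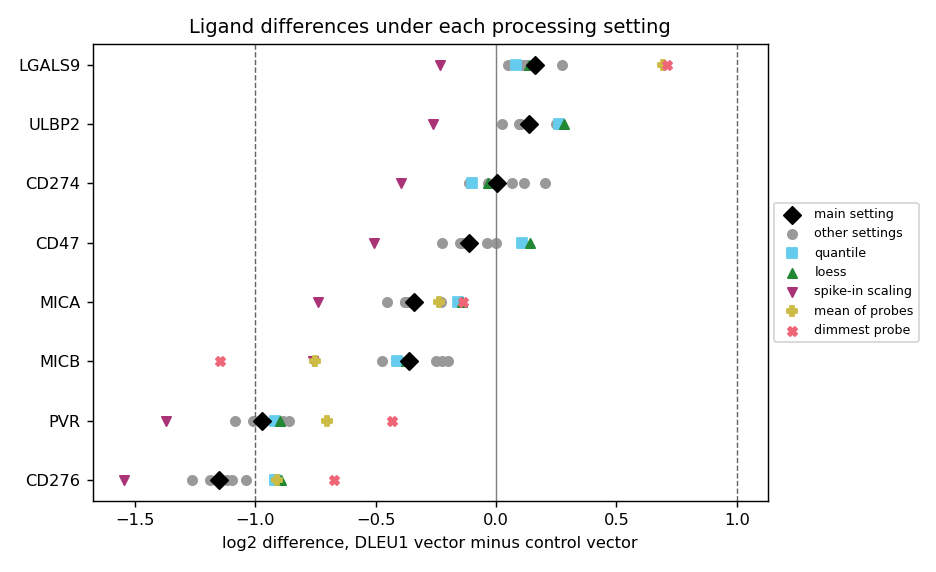
Log2 difference of each ligand detected on both arrays (DLEU1 vector minus control vector) under the setting reported here (black diamonds) and under each other setting. CD276 and PVR stay below 0 throughout, MICA and MICB do too, and CD274, CD47, ULBP2 and LGALS9 cross 0, the last pair with spike-in scaling only.

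Relatives of the checkpoint ligands were read from lists written with earlier results of these data known. The first list held B7 and butyrophilin genes and also TNFRSF14, a ligand of BTLA that belongs to neither family. Of its 13 genes with a probe, 7 were detected on both arrays. Their median of 0.86 was the value of TNFRSF14 itself, which differed by 0.24 at another probe. Of the 7, 3 were at least 2-fold higher and 0 lower, beside 9.18% and 9.78% of all genes detected on both arrays. CD86, a costimulatory ligand of CD28 and CTLA4 best known from antigen-presenting cells, went from 1.85 to 3.78, a difference of 1.93. BTN3A2 differed by 1.45 and BTN3A1 by 1.33; they are butyrophilins involved in the recognition of phosphoantigens by gamma delta T cells, and BTN3A1 was under 2-fold (0.93) with spike-in scaling. At the brightest probes, the smallest difference of the list was 0.19, for BTN2A1. BTN2A2 differed by 0.28 at its brightest probe but by -0.47 at another. BTNL8 was detected with the DLEU1 vector only, at least 1.43-fold higher. NCR3LG1 (B7-H6), also of the B7 family, differed by -1.15. It was placed in the list of NK and T cell receptor ligands below and is not in these counts.

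Ligands of NK and T cell receptors in the other lists differed in both directions. Among the other NKG2D ligands, all 3 with a probe were detected on both arrays and RAET1E went from -1.48 to 0.28, a difference of 1.76, whereas ULBP1 differed by 0.033. Of 20 further ligands, 16 were detected on both arrays, with a median of -0.03. Of these, 2 were at least 2-fold higher and 3 lower (9.18% and 9.78% of all genes). TNFSF10 (TRAIL), which triggers death receptors, went from 2.83 to 6.52, a difference of 3.69, and PVRL4 (nectin-4), from the family of PVR relatives, differed by 2.72. CLEC2D, the ligand of the NK receptor CD161, differed by -1.36 at its brightest probe and by -1.52 at another (5.05 to 3.52). Its dimmest detected probe, with a level of -3.58 on each array, near the lowest detected, differed by 0.0071. CEACAM1, an adhesion molecule that inhibits lymphocytes, differed by -1.29 and NCR3LG1 (B7-H6), the ligand of NKp30, by -1.15, both just under 2-fold (-0.999 and -0.897) with normexp correction. Of the other PVR relatives, PVRL1 and PVRL3 differed by -0.14 and -0.13, and PVRL2 by -0.21 at its brightest probe and by 0.26 at another.

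Around CD47, 6 of 8 listed genes were detected on both arrays. Of these, 2 were at least 2-fold higher and 0 lower (9.18% and 9.78% of all genes). With spike-in scaling 1 was higher and 1 lower (5.01% and 21.4% of all genes). CD24, the ligand of SIGLEC10 and another signal against phagocytosis, went from 2.64 to 6.03, a difference of 3.39. LRP1, a phagocytic receptor for calreticulin, differed by 1.12 at its brightest probe and by 0.47 at its dimmest, and was under 2-fold with spike-in scaling (0.72) and normexp correction (0.92). THBS1, a secreted ligand of CD47, had the largest decrease of the list at -0.64. QPCTL, the enzyme that modifies CD47, differed by -0.57. The related glutaminyl cyclase QPCT was detected with the control vector only, at least 1.48-fold lower with the DLEU1 vector. CD47 itself thus stood among neighbours of which CD24 differed far more.

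Of 12 other galectin genes with a probe, 9 were detected on both arrays, with a median of 0.58. Of the 9, 3 were at least 2-fold higher and 0 lower (9.18% and 9.78% of all genes). LGALS7, a galectin of stratified epithelium, differed by 1.87, LGALS9C by 1.07 and LGALS3 by 1.04, and with spike-in scaling 1 of the 3 was still at least 2-fold higher. The largest decrease was -0.44, for LGALS8.

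Genes known to regulate these ligands were measured as well. Of 20 PD-L1 regulators, all 20 were detected on both arrays, with a median of -0.06. Of these, 2 were at least 2-fold higher, near the share of all genes (9.18%), and 0 lower (9.78% of all genes). STAT3 differed by 1.14 and IRF1, the factor that acts at the CD274 promoter after interferon-gamma, by 1.03. With spike-in scaling 0 of the 20 were higher and 2 were lower (5.01% and 21.4% of all genes). COPS5, a deubiquitinase of PD-L1, had the largest decrease, at -0.92. Of 10 genes for NKG2D ligand shedding or stress induction, all 10 were detected. Of these, 0 were at least 2-fold higher and 2 lower (9.18% and 9.78% of all genes). E2F1, a transcription factor of the cell cycle, went from 3.44 to -0.11, a difference of -3.56, CHEK1, a kinase of the DNA damage checkpoint, differed by -2.40, and MMP14, a membrane metalloprotease, had the largest increase at 0.72. Whether these differences bear on MICA, MICB or ULBP2 was not tested.

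**Figure D4:**
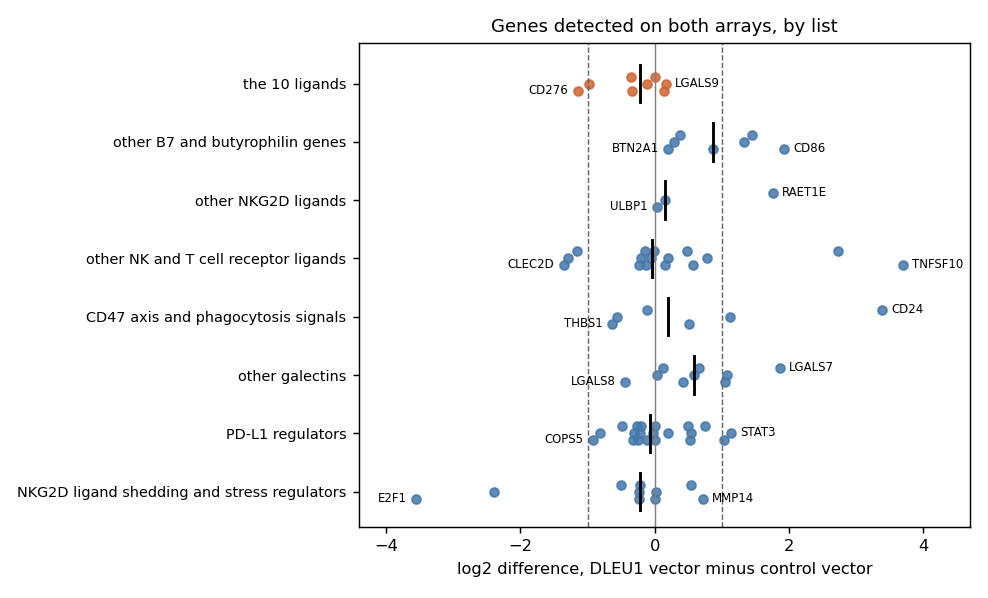
Log2 difference (DLEU1 vector minus control vector) of genes detected on both arrays, by list, with each point 1 gene, black bars at list medians, dashed lines at 2-fold and the lowest and highest gene of each list named. The ligands span -1.15 to 0.16, and TNFSF10 (3.69), CD24 (3.39) and E2F1 (-3.56) lie furthest from 0; with spike-in scaling every point shifts by -0.40.

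The cultures were checked for what else they might hold. All 10 epithelial markers were detected on both arrays. With the DLEU1 vector, 5 of them were at least 2-fold higher and 0 lower (9.18% and 9.78% of all genes). With spike-in scaling 3 were higher and 1 lower (5.01% and 21.4% of all genes). The basal keratins KRT17, KRT14 and KRT5 differed by 3.09, 2.85 and 2.10, the desmosomal DSP by 1.37 and the adhesion molecule CDH1 by 1.04, and EPCAM had the largest decrease at -0.78. Their summed scaled signal was 1301 in control cells and 2019 with the DLEU1 vector. Of 9 leukocyte markers, CD3E, CD2, MS4A1, NKG7 and LCP2 were detected on neither array, beside 48.0% of all gene names. The summed signal of the leukocyte markers was 2.398 and 1.63. The largest increase among the 4 that were detected was 0.45 for PTPRC. CD14 (-1.60) and CORO1A (-1.08) were at least 2-fold lower and 0 were higher (9.78% and 9.18% of all genes). With normexp correction CD14 and CORO1A were -0.56 and -0.78, both under 2-fold, and CORO1A was -0.97 with the percentile of detected probes. Of 11 immune cell receptors listed, which bind these ligands or their relatives, 8 were detected on neither array, beside the same 48.0%. Among the 8 were TIGIT, CD226, CD96, KLRK1 and HAVCR2. CD28 was detected with the DLEU1 vector only, with dim levels of -3.87 and -3.54 (1.26-fold as measured, not a bound). PDCD1 (-0.31) and LAG3 (-0.43) were within 2-fold. Among 9 fibroblast and endothelial markers, COL1A1 (3.99) and VWF (3.70) were at least 2-fold higher and 0 were lower (9.18% and 9.78% of all genes). LUM was detected with the DLEU1 vector only (at least 2.47-fold). COL1A2, COL3A1, DCN and PECAM1 were detected on neither array (48.0% of all gene names). CDH5 had the largest decrease of that list, at -0.59, and a second VWF probe differed by -0.07. The summed signal of that list was 1.99 and 25.2, most of the latter from COL1A1, whose level went from 0.47 to 4.47. These sums add probes of unlike response and describe the arrays only, and the part of these markers in the ligand values was not tested.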

How the data were processed

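Expression was measured in Ca9-22 cells with a control vector or a DLEU1 vector, 1 Agilent 1-colour array each. The deposited scanner files hold the intensity of each spot as processed by Feature Extraction 10.7.3.1 (10.7 in the submitters' notes). In these files the processed signal was the mean signal less a fitted spatial surface, divided by a further detrending factor, with surrogate values for dim spots, which limits how dim probes compare. The authors' series values were the same intensity, rounded (largest difference 0.497%), and the authors used GeneSpring, whose output was not used here. Probe positions were on hg19. 

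Control spots and spots marked as outliers (84 and 103) were left out. Spots of a probe were averaged as log2, the 75th percentile over the array (7.92 and 7.88) was subtracted, and changes were called at 2-fold. A probe detected on 1 array only was given as a bound, against the higher of the lowest detected level and its own level on the dim array. Where its own level was the higher, as for PVR A_32_P72110 and CD28, the value is the measured ratio and not a bound. The number of arrays limits the precision, and spot errors cover technical spread only. Scripts ran in Python 3.11.15 (pandas 2.3.3, statsmodels 0.14.6) and R 4.3.3 (limma 3.58.1 for normexp), and the scaling and calling steps were tested on simulated data.

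The members and the 11 other lists were chosen with earlier results of these data known. Named were all members with every probe, DLEU1, and from each other list the largest increase, the largest decrease, genes changed at least 2-fold and genes detected on 1 array only. BTN2A1, BTN2A2, TNFRSF14, PVRL1, PVRL2, PVRL3, ULBP1 and QPCTL and the markers not detected were named outside this rule, after their values were seen. Alternatives were other scalings (median, 75th percentile of probes detected on both arrays, quantile, loess with a span of 0.3, none, 8 spike-in probes), the series values, normexp (offset 50), other filters and probe choices, the median of the 100 nearest spots subtracted, and other fold thresholds. Leaving out the damaged strip (columns 36 to 40, rows 1 to 128 of the DLEU1 vector array) was chosen after seeing the data. Motifs were searched in RefSeq promoter windows of GRCh38.p14, and no coordinate was moved between builds.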

Additional observations from a re-analysis of the deposited data

How the results depend on the processing

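Relative to the reported setting, spike-in scaling moved the median of all genes by -0.40, median scaling by -0.11 and the 75th percentile of probes detected on both arrays by 0.11, and the share of higher genes among those called went from 48.4% to 18.99%, 39.0% and 58.4%. In the counts that follow, percentages are the share of all genes called the same way in that setting. Members at least 2-fold lower were 2 in place of 1 with median scaling (12.1%), no scaling (10.5%) and spike-in scaling (21.4%). They were 0 with quantile normalization (8.64%), loess (8.16%) and the mean of detected probes (9.52%). Members at least 1.5-fold lower were 2 (22.0%) and at least 3-fold lower 0 (3.31%). With the dimmest probe the count stayed at 1 (10.0%), but the gene was MICB (-1.15) and not CD276 (-0.67). Members at least 2-fold higher were 1, VTCN1, in place of 0 without a detection filter (9.77%). The median difference of the members, -0.23, was -0.34 with median scaling, -0.11 with the percentile of detected probes, -0.13 with quantile normalization, -0.087 with loess, -0.62 with spike-in scaling, -0.053 without a filter, -0.34 with a signal of at least 100, -0.12 with the dimmest probe and -0.13 with the local median subtracted. The DLEU1 difference was 2.62 with median scaling, 2.85 with the percentile of detected probes, 2.92 with quantile normalization, 2.97 with loess, 2.34 with spike-in scaling, 1.38 as the mean of its probes and 0.54 at its dimmest probe. CLEC2D (0.0071) and VWF (-0.072) turned sign at their dimmest probes. The cause was not tested. Among 115 values of members in other settings, 61 stayed within the spot SD of 0.080 over all brightnesses and 54 moved further. That SD is smaller than the one given above for dim probes such as CD274. Only CD276 differed by 2-fold or more in the reported setting, and its sign changed in 0 values. Of differences under 2-fold, 11 values had the opposite sign. Leaving out the damaged strip, in which the CDH1 probe lies and no member does, moved no count of members. No paired analysis was possible because each group holds 1 array, and no replicate could be left out. For CD274, PDCD1LG2, VTCN1 and LGALS9, signal over background limits what could be seen.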
